A study of Drosophila melanogaster with 8 samples.

Results

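The genes described here are a list of 33 genes of synaptic vesicle release and recycling, listed by name for their known roles in that cycle. Of these, 32 were found under their listed name among 13989 genes in both expression tables. All 32 had an expression value above 1 FPKM in every group, as did 8312 genes in all. FPKM is the number of sequenced fragments per kilobase of transcript, scaled for the depth of sequencing, here by the authors' geometric normalization. Synaptic vesicles fill with transmitter, dock at the active zone, are primed, and fuse when calcium enters the terminal. Fusion is driven by SNARE proteins of the vesicle and of the plasma membrane and is timed by synaptotagmins, and the spent membrane is then taken back by clathrin, its adaptors and dynamin. In the pupal brain of Drosophila this machinery is put in place while adult circuits form.

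The series compared CNS RNA of pupae with pan-neuronal knockdown of dStim, which encodes the endoplasmic reticular calcium sensor of store-operated calcium entry, with that of wild type pupae. The knockdown animals (KD) carried ElavC155GAL4, a driver active in all neurons, with a dStim RNAi transgene and tubulinGAL80ts, a temperature-sensitive GAL4 repressor that confines the knockdown to the time at 29 °C. The wild type (WT) was Canton S, without these transgenes, so that the effects of the knockdown, of the transgenes and of the genetic background cannot be told apart. Pools of about 10 CNS were taken, in 2 biological replicates for each of 4 groups: KD at 36 h after puparium formation (APF) following 24 h of knockdown, WT at 36 h, KD at 72 h after 36 h of recovery (KD+recovery), and WT at 72 h. Animals were reared at 25 °C, and the labels do not say whether WT was also moved to 29 °C.

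Each group has 1 FPKM per gene, which the authors pooled over the replicates. The pooled values carry no spread between replicates, so no difference below was tested and none has a p-value. The statistics that the authors deposited for their own comparisons of the genotypes were not used. The depth of the samples is unknown from these values, and higher and lower are said of the pooled values alone. The targeted gene, Stim, was at 33.9 FPKM in KD and 42.2 FPKM in WT at 36 h, a ratio of 0.80, and at 31.3 FPKM in KD+recovery and 38.6 FPKM in WT at 72 h, a ratio of 0.81. All 7 neuronal markers examined, among them elav, Appl and nrv3, were expressed, which fits the labelled tissue, and those of neuroblasts summed to between 3.23 and 8.78 FPKM in any group. Muscle markers summed to 67.9 FPKM in KD and 146 FPKM in WT at 36 h, with 7 of 7 lower in KD, and to 807 FPKM in KD+recovery and 1034 FPKM in WT at 72 h, with 5 of 7 lower in KD+recovery. Markers of trachea and cuticle summed to 90.4 FPKM in KD and 209.8 FPKM in WT at 36 h, with 3 of 6 lower in KD, among them Gasp at 40.6 FPKM in KD and 121 FPKM in WT, and to 281 FPKM in KD+recovery and 382 FPKM in WT at 72 h, with 4 of 6 lower in KD+recovery. Whether these differences bear on the synaptic genes was not tested. In such bulk samples, fewer cells of a type and less RNA per cell cannot be told apart.

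By their median, the synaptic vesicle genes were among the more highly expressed genes of the pupal CNS. Their median level was 129 FPKM in KD and 142 FPKM in WT at 36 h, beside 26.3 FPKM in both groups over all 8312 genes. At 72 h it was 229 FPKM in KD+recovery and 189 FPKM in WT, beside 21.1 and 20.5 FPKM over all genes in those groups. In WT, 20 of the 32 genes were in the top 10 percent of genes at 72 h, against 17 of 32 at 36 h. Levels ranged widely within the list, whose lowest gene was at percentile 11.1 of all genes in WT at 36 h. Complexin (cpx) had the highest value at 72 h, with 1865 FPKM in KD+recovery and 1469.5 FPKM in WT, while Sytalpha, a synaptotagmin of neurosecretory cells, had the lowest, with 15.8 FPKM in KD+recovery and 13.3 FPKM in WT.

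**Figure D1:**
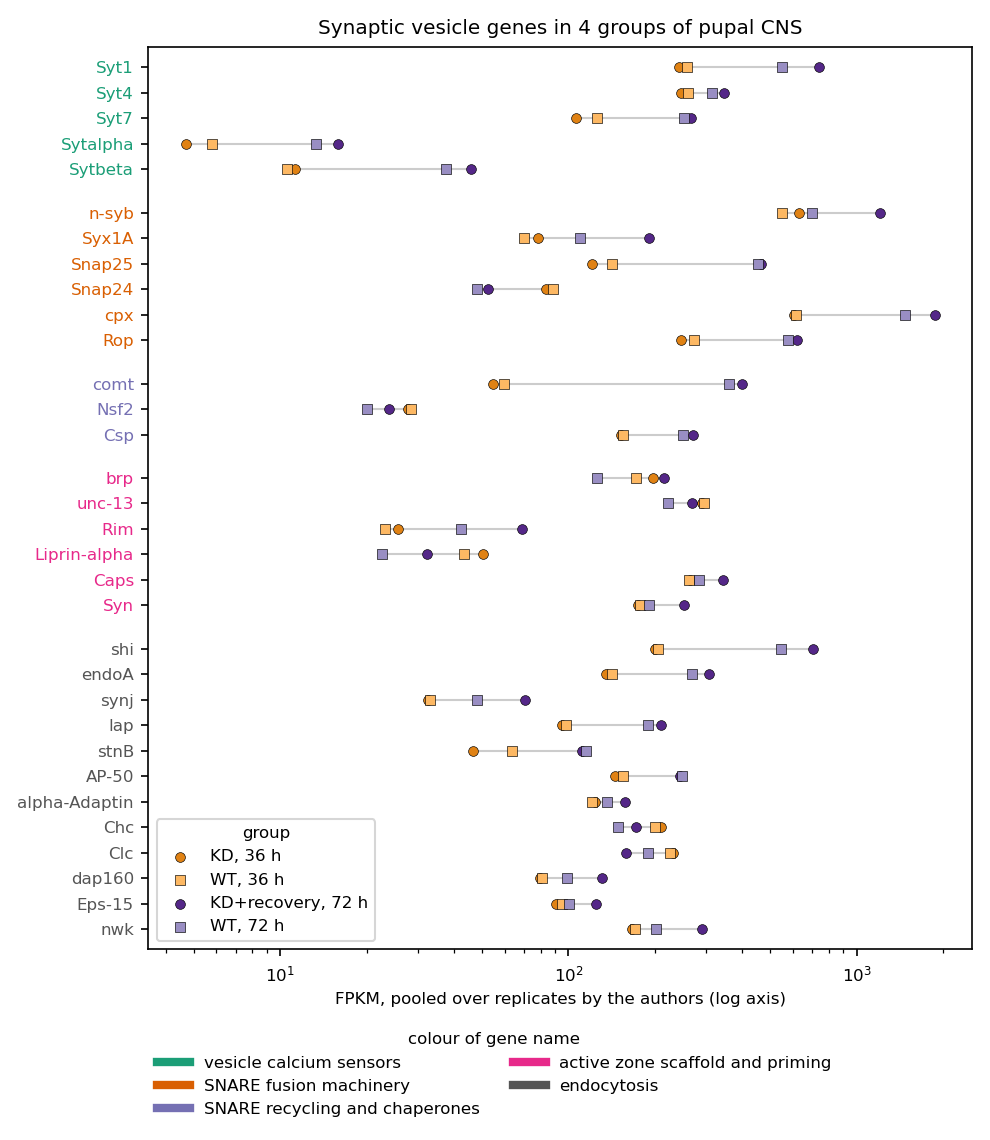
Expression of the 32 synaptic vesicle genes in the 4 groups, in FPKM on a log axis. Each point is the authors' value for a group, pooled over 2 replicates (circles KD, squares WT; orange 36 h, purple 72 h), and names are coloured by role. The groups of the same age mostly lie close together, and the 72 h points lie to the right of the 36 h points for most genes, furthest for comt, which had 361 FPKM at 72 h and 59.9 FPKM at 36 h in WT.

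The genes were also long. Their median longest transcript was 4529.5 nt, against 2143 nt over the 8053 genes of known length, and 29 of 32 were above that median. Length bears on every comparison of genotypes below, because at 72 h genes with long transcripts had higher values in KD+recovery than in WT throughout the transcriptome. The median log2 difference was -0.25 among the 1611 genes with the shortest transcripts and 0.32 among the 1610 with the longest, which included 18 of the 32 synaptic genes. Each difference is therefore also given relative to the median of genes of similar transcript length, in 20 bins of length. On the small chromosome 4 lay 3 of the genes (Syt7, unc-13 and Caps), 9.38% of the list against 0.926% of all genes. Exons of Sytalpha and Syn overlap those of CG6870 and Timp on the opposite strand, and those of Clc overlap CG6951 on the same strand, so reads of these genes may be shared between them.

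The first question was whether the release machinery differed in the CNS at the end of the knockdown itself. At 36 h none of the 32 genes differed by 1.5-fold or more between KD and WT, where 3.1% of all genes were higher and 3.57% lower in KD by that much. The log2 differences ran from -0.45 to 0.23, with 22 genes lower and 10 higher in KD, where 49.7% of all genes were higher. Their median was -0.03, beside -0.00 over all genes. Relative to genes of similar length, 26 were lower and 6 higher, where 49.9% of all genes were higher, with a median of -0.09.

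Among the calcium sensors, 4 of 5 were lower in KD at 36 h. Syt1, the sensor of fast release on synaptic vesicles, was at 241 FPKM in KD and 259 FPKM in WT. Syt7, a synaptotagmin of high calcium affinity, was at 106 FPKM in KD and 126 FPKM in WT, a log2 difference of -0.25 with or without the adjustment for length. Sytalpha was at 4.70 FPKM in KD and 5.81 FPKM in WT (log2 -0.31), the lowest levels of the list. Syt4, a synaptotagmin of postsynaptic and peptidergic vesicles, was at 245 FPKM in KD and 260.4 FPKM in WT, and only Sytbeta was higher in KD, at 11.3 FPKM against 10.5 FPKM in WT.

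The SNAREs that form the fusion complex did not share a direction at 36 h. Snap25, a plasma membrane SNARE, was at 121 FPKM in KD and 142 FPKM in WT (log2 -0.23). Synaptobrevin, the SNARE of the vesicle (n-syb), was at 632 FPKM in KD and 549 FPKM in WT (log2 0.20), and syntaxin (Syx1A), the second plasma membrane SNARE, was at 78.1 FPKM in KD and 70.1 FPKM in WT (log2 0.16). The ratio of Snap25 to Syx1A was thus 1.55 in KD and 2.03 in WT. Rop, the Munc18 protein that binds syntaxin, was at 245 FPKM in KD and 273 FPKM in WT, while cpx, which clamps and then promotes fusion, was at 608 FPKM in KD and 617 FPKM in WT.

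Genes of SNARE recycling and of the active zone were also within 1.5-fold between genotypes at this age. The ATPase that takes spent SNARE complexes apart (comt, NSF1) was at 54.8 FPKM in KD and 59.9 FPKM in WT, and its relative Nsf2 was at 27.8 FPKM in KD and 28.5 FPKM in WT. The cysteine string protein Csp, a vesicle chaperone, was at 152 FPKM in KD and 155 FPKM in WT. The 6 genes grouped here as scaffold and priming include synapsin (Syn), which holds vesicles in reserve. Of the 6, 4 were higher in KD, but relative to genes of similar length 4 were lower. The highest ratio was that of Liprin-alpha, an organiser of active zone assembly, with 50.7 FPKM in KD and 43.3 FPKM in WT (log2 0.23, or 0.13 adjusted for length). Bruchpilot (brp), the ELKS-related scaffold, was at 196 FPKM in KD and 172 FPKM in WT, and unc-13, which primes vesicles by opening syntaxin, was at 291 FPKM in KD and 295 FPKM in WT.

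Endocytic genes were nearly level between the genotypes at 36 h, except for stnB. Dynamin (shi), which cuts endocytic vesicles free, was at 199 FPKM in KD and 204 FPKM in WT. Clathrin heavy chain (Chc) was at 209 FPKM in KD and 200.2 FPKM in WT. Of the 12 endocytic genes, 11 were within 0.10 of 0 on the log2 scale before adjustment for length. Relative to genes of similar length, 11 of the 12 were lower in KD (median log2 -0.09), where 49.9% of all genes were higher. stnB, the adaptor that retrieves synaptotagmin, was at 46.8 FPKM in KD and 63.7 FPKM in WT. This was the largest difference on the list at 36 h (log2 -0.45), and adjusted for length (log2 -0.60) stnB was past 1.5-fold, as were 3.4% of all genes on the lower side and 3.32% on the higher.

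stnB lies on a dicistronic transcript, however, and how its reads were shared out between genes was not tested. stnA and stnB are read from the same messenger RNA, and stnA differed the other way, with 88.5 FPKM in KD and 72.9 FPKM in WT. Their sum was 135 FPKM in KD and 137 FPKM in WT (log2 -0.01, or -0.17 adjusted for length), which is not past 1.5-fold on either scale. The same division was seen at 72 h, where stnB held 33.7% of the sum in KD+recovery and 46.3% in WT, close to its 34.6% in KD and 46.7% in WT at 36 h. The sum at 72 h was 330.4 FPKM in KD+recovery and 247 FPKM in WT (log2 0.42), so that stnB, at 111 FPKM in KD+recovery and 114.6 FPKM in WT, and stnA, at 219 FPKM in KD+recovery and 133 FPKM in WT, gave different pictures of a shared transcript.

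**Figure D2:**
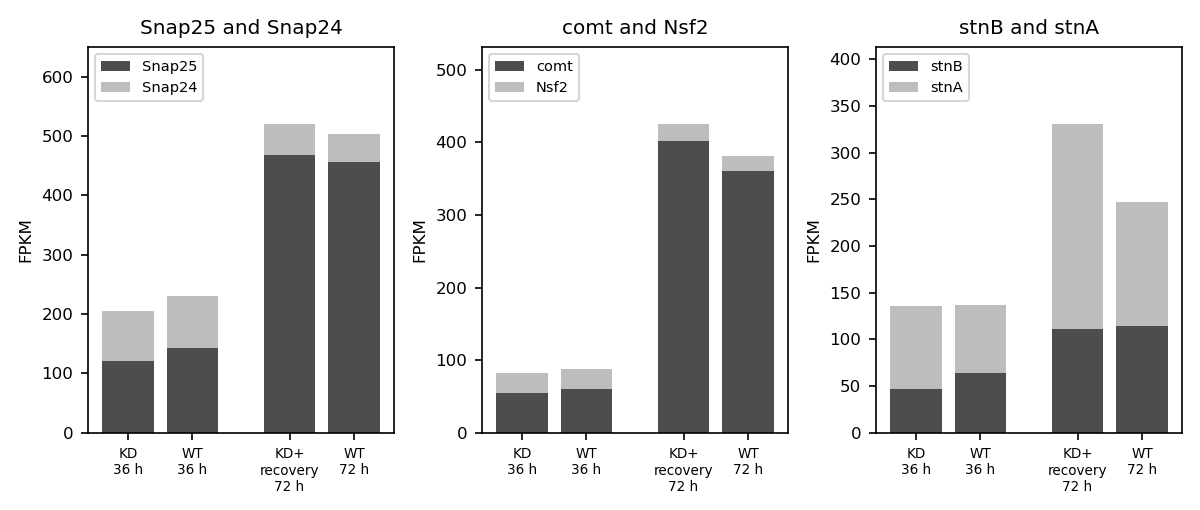
Stacked FPKM of Snap25 and Snap24, of comt and Nsf2, and of stnB and stnA in KD and WT at 36 h and in KD+recovery and WT at 72 h; each segment is the authors' pooled value. Snap25 and comt make up most of their pairs at 72 h in both genotypes (89.9% and 94.4% in KD+recovery), and stnB has a smaller share of the stoned sum in KD and KD+recovery than in WT of the same age.

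The second question was whether the machinery differed at 72 h, after the 36 h that followed the knockdown period. In these pooled values Stim itself was at 0.81 of its WT level at 72 h, close to the 0.80 at 36 h. At 72 h, 29 of the 32 genes were higher in KD+recovery than in WT, with a median log2 difference of 0.26, beside 0.00 over all genes, of which 50.4% were higher. Past 1.5-fold were 4 genes, n-syb, Syx1A, brp and Rim, all of them higher in KD+recovery, and none was lower. Over all genes 7.05% were higher and 5.65% lower by that much. Relative to genes of similar length, 23 of 32 were higher, beside 49.9% of all genes, and the median was 0.06. On that scale n-syb alone remained past 1.5-fold, where 3.91% of all genes were higher and 4.17% lower by that much.

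**Figure D3:**
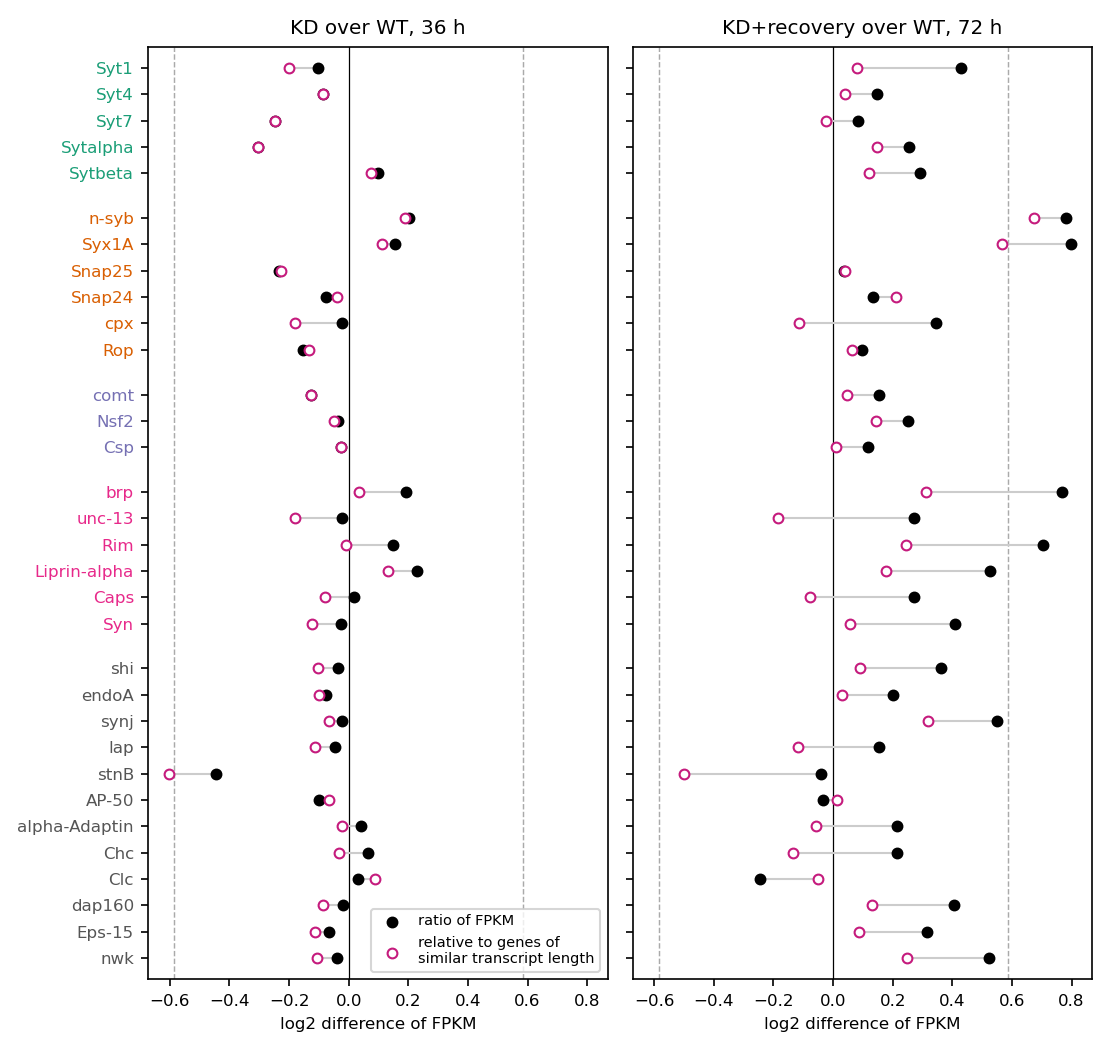
Log2 difference of FPKM between KD and WT at 36 h (left) and between KD+recovery and WT at 72 h (right) for each gene, as the ratio of the pooled values (black) and relative to genes of similar transcript length (open). Dashed lines mark 1.5-fold. No black point passes them at 36 h and 4 do at 72 h, of which only n-syb does so as an open point.

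Synaptobrevin had the largest difference adjusted for length at 72 h. The gene, at chr3L:1631910-1637767 of the dm3 build, was at 1208 FPKM in KD+recovery and 703 FPKM in WT, 1.72-fold higher (log2 0.78, or 0.67 adjusted for length). Its transcript of 3570 nt is of moderate length for the list. Syx1A was at 191 FPKM in KD+recovery and 109.9 FPKM in WT, 1.74-fold higher (log2 0.80, or 0.57 adjusted, just under the fold used). Its value is uncertain, because its exons overlap on the same strand with those of 4EHP, a cap-binding translational repressor. 4EHP was at 108 FPKM in KD+recovery and 73.8 FPKM in WT. Syx1A and 4EHP summed to 299 FPKM in KD+recovery and 184 FPKM in WT, 1.63-fold higher (log2 0.70, not adjusted for length). How reads were shared out between them was not tested. The third SNARE of the complex did not share the difference of n-syb and Syx1A. Snap25 was at 468 FPKM in KD+recovery and 456 FPKM in WT, a ratio of 1.03, and the ratio of Snap25 to Syx1A was 2.45 in KD+recovery and 4.15 in WT. Between n-syb and Syx1A the ratio was 6.32 in KD+recovery and 6.40 in WT.

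The other fusion genes were closer between genotypes at 72 h. For cpx, with 1865 FPKM in KD+recovery and 1469.5 FPKM in WT, the log2 difference of 0.34 was -0.11 relative to genes of similar length, its longest transcript being 9682 nt. Rop was at 619 FPKM in KD+recovery and 578 FPKM in WT, and Snap24, a close relative of Snap25, was at 52.6 FPKM in KD+recovery and 48.0 FPKM in WT. All 3 recycling genes were slightly higher in KD+recovery, with 401 FPKM against 361 FPKM in WT for comt, 23.8 FPKM against 19.96 FPKM in WT for Nsf2, and 271 FPKM against 249.9 FPKM in WT for Csp, and adjusted for length they lay between 0.01 and 0.14 on the log2 scale.

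The scaffold and priming genes had the highest median of the 5 roles at 72 h (log2 0.47 over 6 genes), but not once adjusted for length, where theirs was 0.12 and that of the 6 SNARE fusion genes 0.14. brp, at chr2R:5391293-5424980, was at 215 FPKM in KD+recovery and 126 FPKM in WT, 1.70-fold higher (log2 0.77, or 0.31 adjusted). Rim, the scaffold that links vesicles to calcium channels, at chr3R:13700763-13734462, was at 69.0 FPKM in KD+recovery and 42.4 FPKM in WT, 1.63-fold higher (log2 0.70, or 0.24 adjusted). Their longest transcripts measure 11924 and 11676 nt. Liprin-alpha was at 32.3 FPKM in KD+recovery and 22.4 FPKM in WT (log2 0.53, or 0.18 adjusted). For unc-13, whose longest transcript of 12914 nt is the longest of the list, the log2 difference was 0.27, with 267 FPKM in KD+recovery and 221 FPKM in WT, and the adjusted difference was -0.19. The genes with the longest transcripts thus did not all differ alike. Caps, the activator of dense core vesicle release, was at 343 FPKM in KD+recovery and 284 FPKM in WT, and synapsin (Syn), which holds vesicles in reserve, was at 252 FPKM in KD+recovery and 189.7 FPKM in WT, with adjusted differences of -0.08 and 0.06.

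The listed RIM-binding protein, Rbp, was not found under that name. The RefSeq table pairs Rbp with CG43073, which the tables list at 152 FPKM in KD+recovery and 91.1 FPKM in WT at 72 h (log2 0.74, or 0.28 adjusted), and at 32.1 FPKM in KD and 37.5 FPKM in WT at 36 h (log2 -0.22). It was left out of the counts. Its values at 72 h were similar in size and in their dependence on length to those of brp and Rim.

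The calcium sensors were higher in KD+recovery in 5 of 5 cases, none past 1.5-fold. Syt1 was at 742 FPKM in KD+recovery and 551 FPKM in WT (log2 0.43, or 0.08 adjusted). Syt4 was at 348 FPKM in KD+recovery and 314 FPKM in WT, and Syt7 at 267 FPKM in KD+recovery and 253 FPKM in WT. Sytbeta was at 46.1 FPKM in KD+recovery and 37.7 FPKM in WT. Adjusted for length, the 5 values lay between -0.02 and 0.15.

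Among the 12 endocytic genes, 9 were higher in KD+recovery, and none was past 1.5-fold. The largest log2 differences were those of synaptojanin (synj), the phosphoinositide phosphatase of uncoating, with 70.6 FPKM in KD+recovery and 48.2 FPKM in WT (0.55, or 0.32 adjusted), and of nervous wreck (nwk), an F-BAR protein of the periactive zone, with 289.9 FPKM in KD+recovery and 202 FPKM in WT (0.52, or 0.25 adjusted). The scaffolds intersectin (dap160), with 130.5 FPKM in KD+recovery and 98.5 FPKM in WT, and Eps-15, with 125 FPKM in KD+recovery and 100.3 FPKM in WT, came next with shi, at 706 FPKM in KD+recovery and 548 FPKM in WT. Adjusted for length these 3 lay between 0.09 and 0.13 on the log2 scale. Endophilin (endoA) was at 308 FPKM in KD+recovery and 268 FPKM in WT, and AP180 (lap), a clathrin assembly protein, was at 209.7 FPKM in KD+recovery and 189 FPKM in WT.

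Coat and adaptor subunits did not differ in the same direction at 72 h. Chc, with 172 FPKM in KD+recovery and 148 FPKM in WT, was higher, and clathrin light chain (Clc), with 159 FPKM in KD+recovery and 189 FPKM in WT, was lower (log2 -0.25, the lowest of the list). Their ratio was 1.08 in KD+recovery and 0.79 in WT. Adjusted for length the differences were -0.13 for Chc, with a transcript of 5793 nt, and -0.05 for Clc, the shortest of the list at 1230 nt. Likewise the alpha subunit of AP-2 (alpha-Adaptin) was at 157 FPKM in KD+recovery and 136 FPKM in WT and the mu subunit (AP-50) at 243 FPKM in KD+recovery and 249 FPKM in WT, with adjusted differences of -0.06 and 0.01. The subunits with unequal differences also had unequal transcript lengths, and whether length accounts for the unequal differences was not tested.

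**Figure D4:**
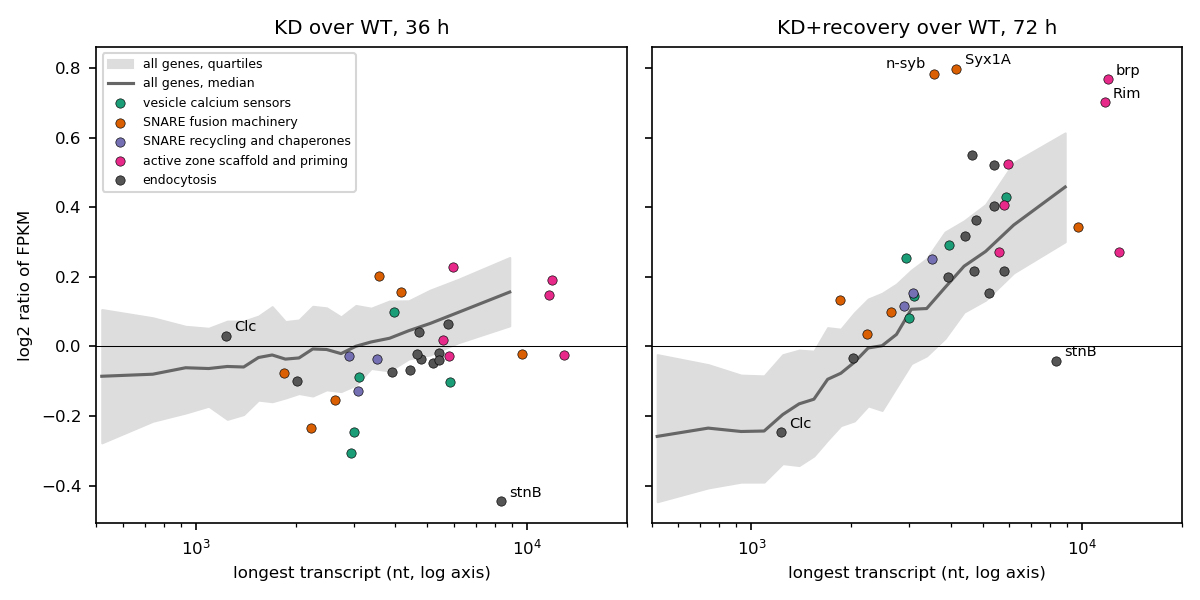
Log2 ratio of FPKM against the longest transcript of each gene (nt, log axis) for KD over WT at 36 h (left) and KD+recovery over WT at 72 h (right). The line and band are the median and quartiles of all genes in 20 bins of length, and points are synaptic genes coloured by role. At 72 h the points follow the line upward, with n-syb and Syx1A above it and stnB below it.

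Over the 32 genes the correlation of log2 transcript length with the log2 difference at 72 h was 0.57 (Pearson's r), and over 8053 genes it was 0.44. At 36 h these were 0.26 and 0.17. The correlations are across genes of the same libraries, which are not independent replicates. Among the 1610 genes with the longest transcripts, the 18 synaptic genes had a median log2 difference of 0.38, beside 0.32 over all, and among the 1610 next in length the 10 synaptic genes had 0.18, beside 0.11 over all. Markers of several cell types also ran higher in KD+recovery. The neuronal markers summed to 3391 FPKM there and 2370 FPKM in WT, a ratio of 1.43, with 6 of 7 higher, a median log2 difference of 0.57, and 0.22 adjusted for length. Glial markers were higher in 7 of 8 cases (median log2 0.26, or 0.12 adjusted), and photoreceptor markers in 7 of 7, with 678 FPKM in KD+recovery and 497 FPKM in WT in sum. Fat body markers, by contrast, were lower in 6 of 6, with 95.5 FPKM in KD+recovery and 133 FPKM in WT in sum. Housekeeping genes were lower in 5 of 6, with 3210 FPKM in KD+recovery and 3866 FPKM in WT in sum (median log2 -0.25, or -0.17 adjusted). The part of cell type content in the differences of the synaptic genes was not tested.

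By age, the machinery showed its largest differences. In the knockdown animals, 26 of 32 genes were higher at 72 h than at 36 h, beside 35.2% of all genes. Of the 32, 15 were at least 2-fold higher, beside 12.5% of all genes, with none 2-fold lower, beside 25.3%. In WT, 25 of the 32 genes were higher at 72 h than at 36 h, beside 32.7% of all genes. There, 9 were at least 2-fold higher, with none 2-fold lower, whereas over all genes 10.5% were 2-fold higher and 23.3% lower. The median log2 difference was 0.60, beside -0.40 over all genes. The ages were deposited in separate tables, and it is not stated whether they were normalized together, so differences were also taken relative to the median gene. On that scale 26 were higher, beside 50% of all genes. At least 2-fold higher were 16, beside 16.3% of all genes, with none 2-fold lower, beside 13.1%. Markers of cell types differed by age as well. In WT, glial markers summed to 6086 FPKM at 72 h and 910.0 FPKM at 36 h, with 5 of 8 higher, and muscle markers to 1034 FPKM at 72 h and 146 FPKM at 36 h, with 7 of 7 higher. Neuronal markers summed to 2370 FPKM at 72 h and 2103 FPKM at 36 h, but 5 of 7 were lower, among them elav at 25.5 FPKM at 72 h and 76.7 FPKM at 36 h. Their part in the differences of the synaptic genes was not tested.

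The strongest difference was that of comt, at chrX:13153030-13156521, with 401 FPKM at 72 h and 54.8 FPKM at 36 h in KD, 7.32-fold higher, and 361 FPKM at 72 h and 59.9 FPKM at 36 h in WT, 6.02-fold higher. By rank, comt was at percentile 96.5 of all genes at 72 h and 76.4 at 36 h in WT. Nsf2, the other fly NSF, was lower at the later age in both genotypes, with 19.96 FPKM at 72 h and 28.5 FPKM at 36 h in WT, though relative to the median gene its log2 difference was 0.15 in KD and -0.11 in WT. The share of comt in the summed NSF level was 94.4% at 72 h and 66.4% at 36 h in KD, and 94.8% at 72 h and 67.8% at 36 h in WT.

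The makeup of the SNAP-25 pair also differed by age. Snap25, at chr3L:24067329-24292305, was at 456 FPKM at 72 h and 142 FPKM at 36 h in WT, 3.21-fold higher. Snap24 was at 48.0 FPKM at 72 h and 88.3 FPKM at 36 h (log2 -0.88, or -0.48 relative to the median gene). The share of Snap25 in their sum was 89.9% at 72 h and 59.1% at 36 h in KD, and 90.5% at 72 h and 61.7% at 36 h in WT. These shares, being ratios within a group, do not depend on how the ages were scaled.

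Among the synaptotagmins the order of the levels differed between the ages. At 72 h Syt1 had 52.3% of the summed level of the 5 in KD+recovery and 47.2% in WT, and Syt4 had 24.5% in KD+recovery and 26.9% in WT. At 36 h Syt4 and Syt1 were nearly level, with 40.3% and 39.6% of the sum in KD and 39.4% and 39.1% in WT. Syt1 was 2.13-fold and Syt7 2.01-fold higher at 72 h in WT, and the neurosecretory Sytbeta was 3.58-fold and Sytalpha 2.29-fold higher, from low levels. Syt4 was 1.21-fold higher.

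Most fusion and endocytic genes were higher at 72 h in WT as well, 5 of 6 and 10 of 12, and 3 of the 6 scaffold and priming genes were. Among the fusion and endocytic genes, shi was 2.69-fold, cpx 2.38-fold and Rop 2.12-fold higher, and endoA, lap and stnB were between 1.80-fold and 1.93-fold higher. Chc, with 148 FPKM at 72 h and 200.2 FPKM at 36 h in WT, and Clc, with 189 FPKM at 72 h and 225 FPKM at 36 h, were lower at the later age, while relative to the median gene Chc differed by -0.03 and Clc by 0.15. The scaffold and priming genes were divided, and adjusted for length 5 of 6 were higher in WT. Liprin-alpha was at 22.4 FPKM at 72 h and 43.3 FPKM at 36 h, brp at 126 FPKM and 172 FPKM at these ages, and unc-13 at 221 FPKM and 295 FPKM. Relative to the median gene, brp (-0.04) and unc-13 (-0.01) were nearly level, and Liprin-alpha was lower by 0.54 on the log2 scale. Rim, at 42.4 FPKM at 72 h and 23.0 FPKM at 36 h, was 1.84-fold higher, Caps was at 284 FPKM and 262 FPKM at these ages, and Syn at 189.7 FPKM and 178 FPKM (log2 0.52 for Caps and 0.50 for Syn relative to the median gene). CG43073 was 2.43-fold higher. In KD, 4 of the 6 were higher at 72 h, with brp at 215 FPKM at 72 h and 196 FPKM at 36 h.

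**Figure D5:**
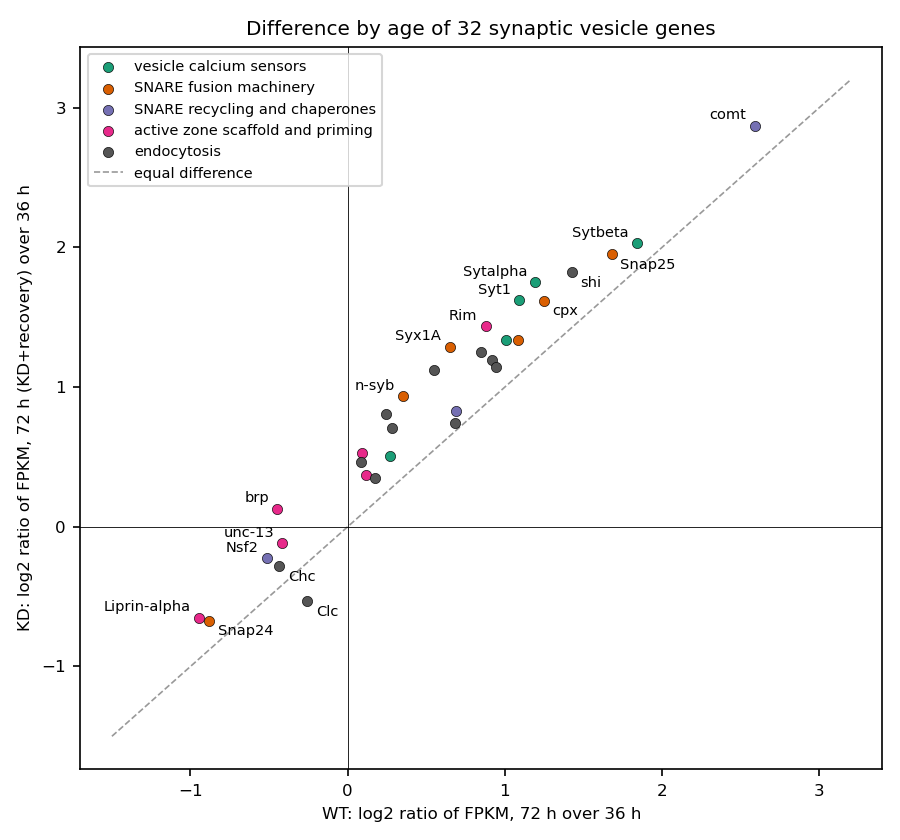
Log2 ratio of FPKM at 72 h over 36 h for each synaptic gene, in KD (vertical) against WT (horizontal), coloured by role; points on the dashed line differ equally in both. Of the 32 points 31 lie above the line, and Clc lies below it.

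The ratio of 72 h to 36 h was larger in the knockdown animals than in WT for 31 of the 32 genes, all but Clc, against 53.6% of all genes. The median excess was 0.30 on the log2 scale, beside 0.03 over all genes. Relative to genes of similar length it was larger for 25 of 32, with a median excess of 0.17, where 49.2% of all genes were larger. This comparison uses all 4 groups and restates that the genes were mostly lower in KD at 36 h and higher in KD+recovery at 72 h. The difference of both ratios was not tested, for want of values per replicate. It was widest for Syx1A (log2 1.29 in KD, 0.65 in WT), n-syb (0.93 in KD, 0.36 in WT) and brp (0.13 in KD, -0.45 in WT).

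A wider list of 42 presynaptic genes outside the 33, of which 37 were found, was examined beside these. At 36 h none was past 1.5-fold higher in KD, beside 3.1% of all genes, and 1 was lower, beside 3.57%. This was Syt12, an atypical synaptotagmin, at 13.9 FPKM in KD and 23.2 FPKM in WT. At 72 h, 4 were past 1.5-fold higher in KD+recovery, beside 7.05% of all genes, and none was lower, beside 5.65%. Adjusted for length none of the 37 was past it, beside 3.91% higher and 4.17% lower over all genes. The 4 were stnA, the calcium channel subunit Ca-beta (119 FPKM in KD+recovery, 74.0 FPKM in WT), the scaffold Spn (50.6 FPKM in KD+recovery, 31.6 FPKM in WT) and Rab3-GEF (112 FPKM in KD+recovery, 73.3 FPKM in WT). All 7 active zone and calcium channel genes of the wider list were higher in KD+recovery at 72 h (median log2 0.57, or 0.16 adjusted).

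By age the wider list held genes with larger differences than any of the 32. In WT, 14 of 37 were at least 2-fold higher, beside 10.5% of all genes, and 2 (CaBP1 and Spn) were lower, beside 23.3%. The vesicle GTPase Rab27 was at 50.6 FPKM at 72 h and 2.62 FPKM at 36 h, and synaptogyrin (Syngr), a vesicle membrane protein, was at 317 FPKM at 72 h and 28.5 FPKM at 36 h. CaBP1, at 30.1 FPKM at 72 h and 266 FPKM at 36 h, had the largest difference downward, but as a relative of the protein disulfide isomerases of the endoplasmic reticulum it has no known place in release and was listed in error. Spn followed, at 31.6 FPKM at 72 h and 82.7 FPKM at 36 h. All 5 vesicular transmitter transporters were higher at 72 h than at 36 h in both genotypes, and their sum was 634 FPKM at 72 h and 274 FPKM at 36 h in WT. At 36 h the 5 were each lower in KD than in WT, with a sum of 238 FPKM in KD, and none was past 1.5-fold.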

How the data were processed

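The authors aligned the reads to the dm3 build with TopHat2 2.0.11 and ran Cuffdiff 2.2.0 with geometric normalization. The values they deposited are FPKM, of which a gene has 1 for each group, replicates being pooled. Their comparison columns (CuffDiff and edgeR fold changes, statistics, average expression, p-values and false discovery rates) were not used. The gene annotation behind the values is not given in the sources used here, and the depth per sample is unknown from them.

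Ratios of FPKM were taken without a pseudocount, over 8312 genes with an FPKM above 1 in all 4 groups. A gene counted as past the fold at 1.5 between genotypes and at 2 between ages. Transcript lengths were the longest in Ensembl release 115 (stnA and stnB were given that of their shared transcript), matched by symbol, RefSeq synonym or locus tag for 96.9% of these genes, and served only for the adjustment. The method was tested on simulated data. All listed genes were named, and of the wider list those past the fold by genotype and the 2 largest differences each way by age in WT. The genes and lists were chosen with earlier results of these data known. Caps also matched capricious (caps), which was left out. No value was held by 3 rows at 72 h. Of gene names, 5 looked like dates, none of them a listed gene. Loci count from 1. Python 3.11.15, pandas 2.3.3, NumPy 2.4.6 and matplotlib 3.10.9 were used. Leaving out listed genes that share a locus, and summing stnA with stnB, were chosen after seeing the data. A pseudocount of 1, another fold, no filter on low values, and centring by length or by the median of all genes were also tried.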

Additional observations from a re-analysis of the deposited data

How the results depend on the processing

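No paired analysis was possible because each group has 1 pooled value, and for the same reason no replicate could be left out. Relative to genes of similar transcript length, 1 listed gene was past 1.5-fold at 36 h in place of none, and 1 at 72 h in place of 4. At 2-fold the count at 72 h was 0, but the share of all genes at 2-fold between genotypes is not given here to set it against. With the 11 genes that share a locus left out (chosen after seeing the data), 2 of 21 were past 1.5-fold at 72 h (n-syb and brp). Both were higher in KD+recovery, as were 7.05% of all genes by that much. Between ages in WT, 18 genes were past 1.5-fold (16 higher, 2 lower). Both by length and by the median of all genes, 16 were past 2-fold, in place of 9. By the median, 16.3% of all genes were 2-fold higher and 13.1% lower. The shares of all genes at 1.5-fold and by length are not given here, so those counts cannot be set against them. The count in KD kept within 1.5 times under every alternative. A pseudocount of 1 moved only Sytalpha by over 0.1 on the log2 scale, and with stnA and stnB summed the counts by genotype stayed at 0 and 4, and adjusted for length came to 0 at 36 h and 1 at 72 h. Centring by length moved 28 of 32 log2 differences at 72 h, and 5 at 36 h, by over that much. With 1 value per group, neither replicate error nor counting error was available from the values used, and no difference was set against it.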
